A study of Mus musculus with 12 samples.

Results

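The genes described here are 10 genes of mouse kidney that handle urate: Slc22a12, Slc2a9, Slc22a13, Slc16a9, Slc17a1, Slc17a3, Slc17a4, Abcg2, Abcc4 and Pdzk1. They were taken by gene symbol from a table of 33188 genes, and each symbol matched 1 row. Whole-kidney RNA of wild-type mice was sequenced in 12 libraries, 4 in each of 3 groups. XZSW libraries came from mice given Xin-Zi-Sheng-Wan decoction, a traditional Chinese medicine, on top of the hyperuricemia model. HUA libraries came from mice with the model alone, which was made with potassium oxonate and hypoxanthine, and CTL libraries came from control mice. The series' design text gives these agents without doses or times, and the animals' strain, sex and age are not known from the labels. No label ties the 4 libraries of a group to separate animals, and the p-values therefore describe the spread among libraries, which may be technical. The table names its columns with the letters M, N and C, which the sample descriptions tie to XZSW, HUA and CTL, and nothing else checks that tie; if M and N were exchanged, the XZSW and HUA values would be too.

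Urate is filtered in the glomerulus and then moved both ways across the proximal tubule. URAT1 (Slc22a12) takes it up from the tubule fluid in exchange for organic anions, and GLUT9 (Slc2a9) can let it leave tubule cells towards the blood. ABCG2, the NPT transporters of the SLC17 family and MRP4 (Abcc4) can carry urate out of the cell into the tubule fluid. PDZK1 is a scaffold of the brush border that binds the tails of several of these transporters and holds them near each other. Mice break urate down with uricase, an enzyme that humans lack and that potassium oxonate inhibits.

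Library totals were 51643999 to 74288100 counts, and all 10 genes were among the 19772 that passed the filter on low counts. Levels of single genes between groups are given as TMM-scaled CPM, the counts relative to library size, unless FPKM is named. Levels between genes are given as the deposited FPKM, which is per transcript length. Sums over gene lists are also FPKM, without TMM scaling. TMM factors were 0.856 to 0.922 in CTL, 1.09 to 1.15 in HUA and 0.918 to 1.05 in XZSW. In FPKM, HUA therefore stands higher against CTL than in CPM, and XZSW does so by less. In this text a gene rose or fell only where its adjusted p was under 0.05. The libraries HUA2, HUA3, HUA4, XZSW3 and XZSW4 stood apart from the other 7: their log2 level against the CTL mean climbed with the GC content of the gene by 0.189 to 0.326 for each 10% of GC, while in the others this slope was -0.0965 to 0.049. This split crosses HUA and XZSW and holds no CTL library on its high side, so values within it are given beside the comparisons.

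Genes of the proximal tubule were lower in HUA than in CTL. Of 18 proximal tubule genes, such as Lrp2 (megalin), Cubn (cubilin) and Miox, 15 fell in HUA against CTL and the other 3 were not called, with a median log2 change of -1.35, while the median of all tested genes was 0.06. Their summed FPKM was 7661 to 9825 in XZSW, 2247 to 6441 in HUA and 8438 to 9377 in CTL. All 10 markers of injured tubule, among them Havcr1 and Lcn2, rose in HUA against CTL. Their summed FPKM was 657 to 1128 in XZSW, 4819 to 30410 in HUA and 331 to 429 in CTL. Much of this sum was Spp1 alone, at 415 to 806 FPKM in XZSW, 3386 to 27110 in HUA and 212 to 284 in CTL. Macrophage and myeloid genes summed to 47.6 to 126 FPKM in XZSW, 194.5 to 279 in HUA and 25.3 to 49.2 in CTL. Of these 11 genes 8 rose in HUA. Of 6 fibroblast and smooth muscle genes 4 rose in HUA against CTL, with sums of 9.60 to 42.8 FPKM in XZSW, 48.05 to 123 in HUA and 11.05 to 16.2 in CTL. Of 5 podocyte genes 3 rose in HUA against CTL and 3 in XZSW against CTL, with sums of 52.5 to 72.0 FPKM in XZSW, 26.8 to 66.5 in HUA and 24.8 to 33.3 in CTL. Of 11 genes of the loop of Henle and distal nephron 3 fell in HUA against CTL (Aqp3, Pvalb and Slc4a1). Transcripts of the mitochondrial genome took 13.5 to 17.2% of counts in XZSW, 7.85 to 11.3% in HUA and 11.7 to 14.9% in CTL. In bulk kidney, fewer proximal tubule cells and less RNA per cell cannot be told apart, and the part of these cell types and of the mitochondrial share in the results below was not tested.

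In control kidneys Slc22a12 was the highest of the 10 genes at 514 ± 112 FPKM (mean ± SD, n = 4), above Slc17a1 at 262 ± 19.5 and Pdzk1 at 255.7 ± 24.35, which overlapped each other. Slc17a3 followed at 76.1 ± 16.2 FPKM, then Abcg2 at 43.8 ± 5.55, Slc16a9 at 35.2 ± 3.32 and Slc22a13 at 16.3 ± 2.99, each apart from the next. Slc2a9 and Abcc4 overlapped at 2.89 ± 0.389 and 2.36 ± 0.326 FPKM, and Slc17a4 was the lowest at 0.628 ± 0.172. In HUA the top 3 by mean came in the same order, at 199 ± 70.0, 135 ± 20.2 and 120.2 ± 42.0 FPKM for Slc22a12, Slc17a1 and Pdzk1, but the values of neighbours overlapped. In XZSW Pdzk1, at 245 ± 21.0 FPKM, stood above Slc17a1, at 182.0 ± 22.55, with no overlap. Abcc4, at 6.92 ± 2.19 FPKM in HUA, was apart from Slc2a9 at 1.96 ± 0.611.

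Against CTL, the HUA libraries show how these genes stand in the hyperuricemia model. Of the 10, 6 fell, 1 rose and 3 were not called. Over all 19772 tested genes 27.8% were called: 12.8% fell and 14.9% rose. The median log2 change of the 10 was -1.18. The genes that fell were Slc22a12, Slc2a9, Slc17a1, Slc17a3, Abcg2 and Pdzk1, that is URAT1, GLUT9, NPT1, NPT4, the ABCG2 pump and the scaffold. The gene that rose was Abcc4. On the CPM scale every HUA library was below every CTL library in 7 of the 10, and above in Abcc4. Among all tested genes 15.2% were lower and 15.1% higher in this way. On the deposited FPKM scale Slc2a9 and Slc16a9, which are among the 7, overlapped CTL.

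Within the model, XZSW libraries were set against HUA libraries, with the decoction against without it. Slc22a12, Slc2a9, Slc17a1, Slc17a3 and Pdzk1 rose, and the other 5 were not called, while over all genes 15.4% were called: 7.09% rose and 8.34% fell. The median log2 change of the 10 was 0.71, and for all tested genes it was 0.01. Of the 18 proximal tubule genes 14 rose in this comparison and the other 4 were not called, with a median log2 change of 1.19. On the CPM scale every XZSW library was above every HUA library in 6 of the 10, against 8.98% of all tested genes. In 0 of the 10 was every XZSW library below every HUA library, against 9.08% of all. On the deposited FPKM scale Abcg2, which is among the 6, overlapped. Both comparisons use the same 4 HUA libraries, so a low HUA value moves both. Against CTL, Abcg2, Slc17a1 and Slc17a3 fell in XZSW and the other 7 were not called, while 4.99% of all genes were called: 2.27% fell and 2.72% rose. On the CPM scale every XZSW library was below every CTL library in 5 of the 10 and above in 1 (11.3% and 10.3% of all genes). On the FPKM scale Slc16a9, which is among the 5, overlapped. The 3 falls called in XZSW against CTL were fragile. Without any 1 CTL library, XZSW1, XZSW3 or XZSW4, edgeR called 0 of the 10, with 5 at an unadjusted p under 0.05 in each. Calls among all genes moved as well, to 133 to 1596 over the 12 fits that left out 1 library, in place of 987.

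The direction of the called genes was also read on each side of the GC split. HUA1, the only HUA library on the low side, minus the 4 CTL libraries gave log2 differences of -1.69 for Slc22a12, -0.71 for Slc2a9, -0.83 for Abcg2, -1.20 for Slc17a1, -1.84 for Slc17a3, -1.09 for Pdzk1 and 1.78 for Abcc4. All 7 had the sign of the full comparison. That sign was fixed beforehand, since HUA and CTL did not overlap in these genes, so only the sizes are informative. XZSW minus HUA was 0.80 on the low side and 0.95 on the high side for Slc2a9, 0.61 and 0.43 for Slc17a1, 1.22 and 1.01 for Slc17a3, and 0.91 and 1.25 for Pdzk1. These 4 genes were higher in XZSW on both sides, which was also fixed, since XZSW and HUA did not overlap in them. XZSW minus CTL on the low side, the only one with CTL libraries, was -0.53 for Abcg2, -0.59 for Slc17a1 and -0.62 for Slc17a3. These groups did not overlap either, so the signs could not differ.

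**Figure D1:**
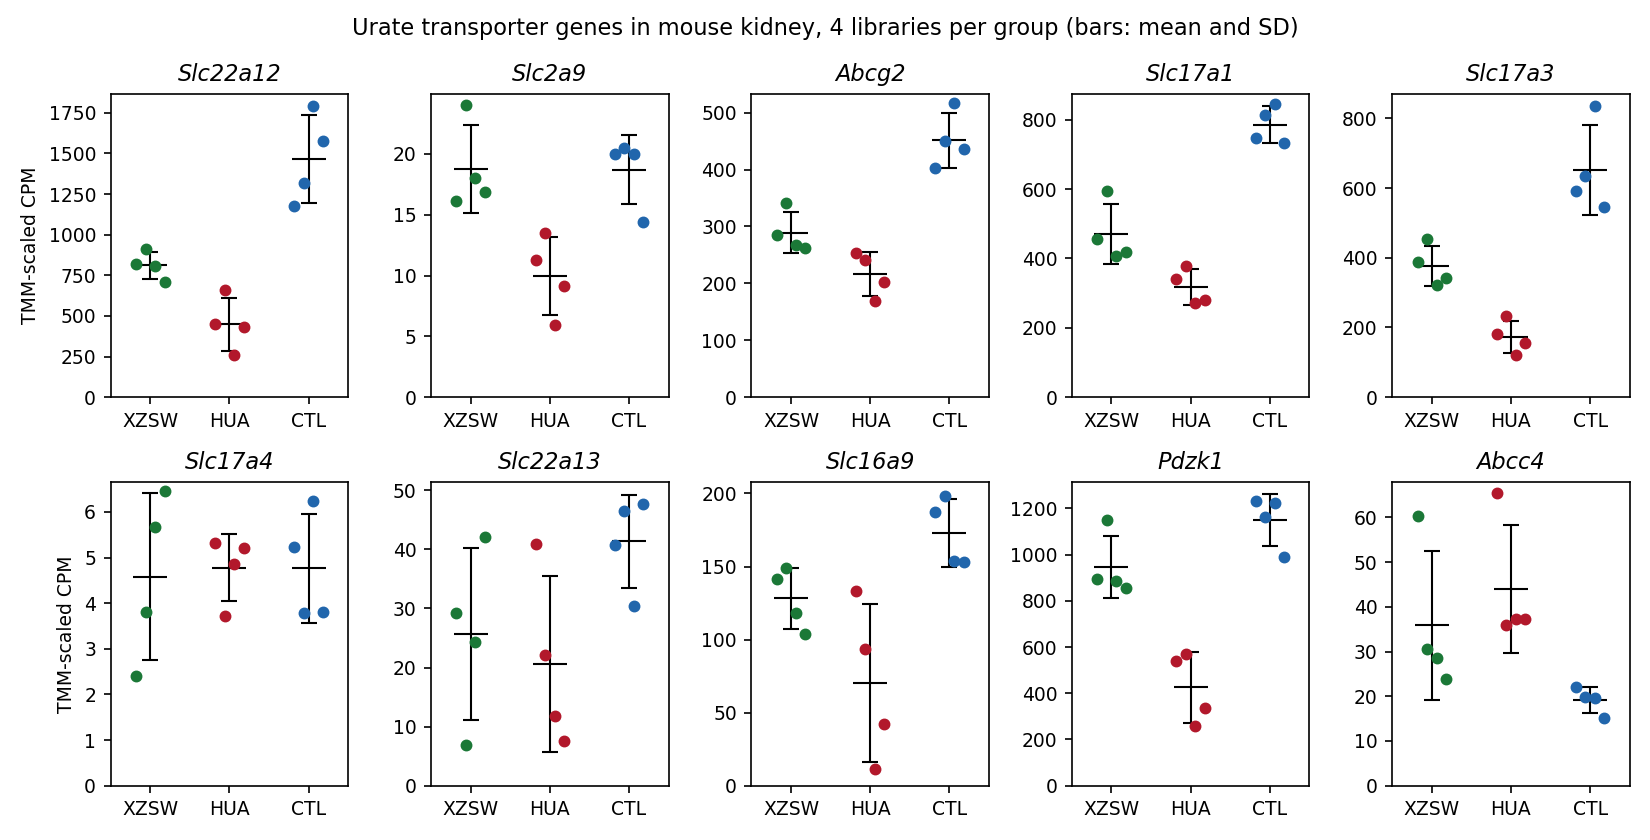
TMM-scaled CPM of the 10 genes in each of the 12 libraries (y axis, linear, from 0), by group on the x axis, with the mean and SD of 4 libraries. For Pdzk1 the XZSW points lie at 856 to 1148 CPM, the HUA points at 257 to 572 and the CTL points at 988 to 1231.

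Promoters are shown for Pdzk1, Slc17a3 and Slc22a12, the genes with the largest falls in HUA, each of which also rose in XZSW. The windows are RefSeq's on GRCm38.p6, 250 bases before to 50 after the start, on the gene's own strand, at chr3:96829815-96830114 (+), chr13:23839184-23839483 (+) and chr19:6543021-6543320 (-). Capitals mark the motif CAAAGTCCA, which HNF4 proteins bind.
Pdzk1: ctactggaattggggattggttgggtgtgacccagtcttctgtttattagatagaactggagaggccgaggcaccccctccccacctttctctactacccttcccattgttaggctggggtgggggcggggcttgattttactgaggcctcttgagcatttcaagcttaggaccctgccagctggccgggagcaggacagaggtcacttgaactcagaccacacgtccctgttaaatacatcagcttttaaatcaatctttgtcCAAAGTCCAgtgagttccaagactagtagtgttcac
Slc17a3: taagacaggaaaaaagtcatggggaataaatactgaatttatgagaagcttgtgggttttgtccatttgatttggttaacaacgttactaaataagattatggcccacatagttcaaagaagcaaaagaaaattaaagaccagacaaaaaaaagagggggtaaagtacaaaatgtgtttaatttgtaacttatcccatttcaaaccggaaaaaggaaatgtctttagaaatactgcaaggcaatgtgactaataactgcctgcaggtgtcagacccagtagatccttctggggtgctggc
Slc22a12: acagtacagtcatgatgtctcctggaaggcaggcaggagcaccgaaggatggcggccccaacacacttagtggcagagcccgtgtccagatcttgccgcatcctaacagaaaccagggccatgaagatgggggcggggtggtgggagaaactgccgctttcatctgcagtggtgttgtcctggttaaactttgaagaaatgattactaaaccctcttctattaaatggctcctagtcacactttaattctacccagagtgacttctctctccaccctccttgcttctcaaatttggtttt
Searched on both strands, CAAAGTCCA was found in 1 of 14 promoter windows of 9 of the genes and in 0.475% of all 32851 windows. RefSeq's table holds 2 windows for Pdzk1; the one printed holds the match, 14 bases after its start, and the other, at chr3:96831921-96832220, holds none. The last bases of the printed Pdzk1 and Slc22a12 windows were found in no GENCODE M21 transcript of the gene, while those of the other Pdzk1 window and of the Slc17a3 window were. The data do not show which start was used in these kidneys. Its short form AGTCCA, which lies within it, was in 3 of the 14 windows (1 each of Pdzk1, Slc17a1 and Abcc4) and in 14.1% of all windows. The HNF1 motif core GTTAAT was in 0 of the 14 and in 7.10% of all windows. These matches describe letters in a window and show no binding. Slc17a4 had no entry.

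Slc22a12 encodes URAT1, the apical urate exchanger. It lies on the minus strand at chr19:6535845-6543032 (GRCm38). It stood at 822, 912, 806 and 706.5 CPM in XZSW1 to XZSW4, at 449, 657, 261 and 429.8 CPM in HUA1 to HUA4, and at 1177, 1320, 1792 and 1574 CPM in CTL1 to CTL4. The 3 groups did not overlap: every HUA library was below every XZSW library, and every XZSW library was below every CTL library. Slc22a12 fell in HUA against CTL with a log2 change of -1.71 (SE 0.24, adjusted p = 0.000337) and rose in XZSW against HUA by 0.85 (SE 0.23, adjusted p = 0.0271). In XZSW against CTL its log2 change was -0.85 (SE 0.23) with an adjusted p of 0.0531. Over the fits that left out 1 library this change was -0.94 to -0.74, with adjusted p from 0.0225 to 0.145 (edgeR). The rise in XZSW lost its call without HUA3, HUA4, XZSW1, XZSW2 or XZSW3 (adjusted p = 0.0521 to 0.0701), with log2 changes of 0.65 to 0.85. Within the high-GC libraries XZSW minus HUA was 0.85 log2 units (2 against 3 libraries) and within the low-GC ones 0.95 (2 against 1). Nrxn2, on the opposite strand, overlaps the gene, and its own counts were 1.76 to 6.24% of those of Slc22a12. Whether the authors' counting used strand was not given in the sources used here.

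Slc2a9 encodes GLUT9, the urate carrier through which urate leaves the tubule cell, and is on the minus strand at chr5:38349273-38503143. Its values were 16.1, 24.1, 18.03 and 16.8 CPM in XZSW1 to XZSW4, 11.3, 13.5, 5.925 and 9.14 CPM in HUA1 to HUA4, and 14.4 CPM in CTL4 beside 19.96 to 20.45 CPM in CTL1 to CTL3. HUA was below both other groups without overlap on this scale, and XZSW and CTL overlapped. On the deposited FPKM scale HUA reached 2.63, above the lowest CTL library at 2.32. Slc2a9 fell in HUA against CTL (log2 change -0.91, SE 0.23, adjusted p = 0.011) and rose in XZSW against HUA by the same size (0.91, SE 0.23, adjusted p = 0.0199). XZSW against CTL gave 0.00 (SE 0.23). The fall had an adjusted p of 0.0508 and a log2 change of -0.58 with library totals as the scaling, and -0.75 with an adjusted p of 0.0872 once the GC split entered the model. The rise had adjusted p = 0.0632 without XZSW2.

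Slc22a13 and Slc16a9 were the most scattered of the 10 in HUA. Slc22a13 encodes OAT10, a urate and nicotinate exchanger described in human kidney, at chr9:119192974-119209098. It stood at 29.2, 6.86, 24.4 and 42.0 CPM in XZSW1 to XZSW4, 41.0, 22.04, 11.8 and 7.60 CPM in HUA1 to HUA4, and 40.8, 46.5, 30.5 and 47.7 CPM in CTL1 to CTL4. HUA1 lay within the CTL range and XZSW2 below every HUA library, so all 3 groups overlapped. No comparison of Slc22a13 was called (HUA against CTL: log2 change -1.01, SE 0.51, adjusted p = 0.168), except that without HUA1 it fell by 1.55 on the log2 scale (adjusted p = 0.0333). XZSW minus HUA was 1.35 log2 units within the high-GC libraries and -1.53 within the low-GC ones, where HUA1 and XZSW2 sit.

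Slc16a9 encodes MCT9, a carrier of the monocarboxylate transporter family whose human gene is associated with serum urate and carnitine. It lies at chr10:70245100-70285968. Its values were 141.5, 149, 118 and 104 CPM in XZSW1 to XZSW4, 133, 93.5, 11.7 and 42.15 CPM in HUA1 to HUA4, and 187, 198.5, 154 and 153 CPM in CTL1 to CTL4. On this scale every HUA library and every XZSW library was below every CTL library. The HUA values were widely spread, with HUA3 the lowest. On the deposited FPKM scale HUA reached 34.29 and XZSW 34.46, above the lowest CTL library at 32.32. With a coefficient of variation of 76.9% in HUA, against 13.4% in CTL, Slc16a9 was not called in HUA (log2 change -1.30, SE 0.49, adjusted p = 0.065). It was called without HUA1 (-1.78, adjusted p = 0.0151), without HUA3 (-0.92, adjusted p = 0.0440), with the DESeq2 test (adjusted p = 0.0199) and with a replicate block (-1.60, adjusted p = 0.0247). In XZSW against HUA, where the groups overlapped, it was not called (0.87, SE 0.49, adjusted p = 0.257), and XZSW minus HUA was 0.13 log2 units within the low-GC libraries and 1.63 within the high-GC ones.

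The 3 genes of the sodium-phosphate transporter family lie side by side on chromosome 13, with Slc17a3 at chr13:23839434-23860716, Slc17a1 at chr13:23867750-23895730 and Slc17a4 at chr13:23895890-23915007. Slc17a3 and Slc17a1 are on the plus strand. Slc17a4 is on the minus strand, 159 bases past the end of Slc17a1. Slc17a3 and Slc17a1 fell in HUA and Slc17a4 was not called. Slc17a2, the next gene of the cluster, had at most 28 counts in any library and was too low to be tested.

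Slc17a3 encodes NPT4, a carrier of urate and other organic anions into the tubule fluid. It had 388, 452.5, 322 and 342 CPM in XZSW1 to XZSW4, 180.2, 234, 122 and 156 CPM in HUA1 to HUA4, and 591.5, 635, 836 and 545 CPM in CTL1 to CTL4. The groups were apart, in the same order as for Slc22a12. It had the largest fall of the 10 in HUA against CTL (log2 change -1.91, SE 0.21, adjusted p = 7.2e-05) and rose in XZSW against HUA (1.12, SE 0.20, adjusted p = 0.00413). This rise was called in each of the 12 fits that left out 1 library. Slc17a3 fell in XZSW against CTL by 0.79 on the log2 scale (SE 0.20, adjusted p = 0.0427), a call lost without any 1 CTL library, XZSW1, XZSW3 or XZSW4 (adjusted p = 0.0656 to 0.128).

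Slc17a1 encodes NPT1, an apical carrier of the same family. Its values were 456.5, 595.5, 407 and 419.6 CPM in XZSW1 to XZSW4, 342, 378, 270.4 and 279.8 CPM in HUA1 to HUA4, and 749, 814, 847 and 734 CPM in CTL1 to CTL4. Again no group overlapped another. Slc17a1 fell in HUA against CTL (log2 change -1.31, SE 0.16, adjusted p = 0.000137), rose in XZSW against HUA (0.56, SE 0.16, adjusted p = 0.0292) and fell in XZSW against CTL (-0.74, SE 0.16, adjusted p = 0.0231). The rise lost its call without HUA3, HUA4, XZSW1 or XZSW2 (adjusted p = 0.0503 to 0.0895), with log2 changes of 0.43 to 0.58. The fall in XZSW lost its call without any 1 CTL library, XZSW1, XZSW3 or XZSW4 (adjusted p = 0.0506 to 0.0755).

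Slc17a4 encodes NPT5, a member of the family better known from the intestine. It rested on 168 to 427 counts per library and stood at 2.39, 3.80, 5.67 and 6.45 CPM in XZSW1 to XZSW4, 5.32, 3.72, 4.87 and 5.21 CPM in HUA1 to HUA4, and 5.235, 3.79, 6.24 and 3.80 CPM in CTL1 to CTL4. The 3 groups overlapped, and XZSW reached both below and above the other groups. Its log2 changes were 0.00 (SE 0.30) in HUA against CTL, -0.06 (SE 0.30) in XZSW against HUA and -0.06 (SE 0.30) in XZSW against CTL, and none was called.

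Abcg2 encodes an ATP-driven pump that exports urate at the apical membrane of kidney and intestine, at chr6:58584523-58695676 on the plus strand. It had 284, 342, 268 and 263 CPM in XZSW1 to XZSW4, 253, 241, 169 and 202 CPM in HUA1 to HUA4, and 403, 449.8, 516 and 435 CPM in CTL1 to CTL4. On this scale XZSW lay between the other groups without overlap, but close to HUA. On the deposited FPKM scale HUA reached 30.89, above the lowest XZSW library at 30.42. Abcg2 fell in HUA against CTL (log2 change -1.06, SE 0.16, adjusted p = 0.000446). In XZSW against HUA it was not called (0.42, SE 0.15, adjusted p = 0.0832), while DESeq2 gave adjusted p = 0.0467 and leaving out HUA1 gave 0.0435. It fell in XZSW against CTL (-0.64, SE 0.15, adjusted p = 0.0348), a call lost without any 1 CTL library, XZSW1, XZSW3 or XZSW4 (adjusted p = 0.0643 to 0.106).

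Abcc4 encodes MRP4, a pump for urate, cyclic nucleotides and other organic anions, at chr14:118482692-118706219 on the minus strand. Its change in HUA was opposite in sign to those of the 6 genes that fell. Its values were 60.4, 30.55, 28.5 and 23.9 CPM in XZSW1 to XZSW4, 65.4, 36.0, 37.3 and 37.3 CPM in HUA1 to HUA4, and 21.98, 19.8, 19.7 and 15.1 CPM in CTL1 to CTL4. Every HUA and XZSW library was above every CTL library, and HUA1 and XZSW1 were the highest of their groups. Abcc4 rose in HUA against CTL (log2 change 1.20, SE 0.28, adjusted p = 0.00721), also in each of the 12 fits that left out 1 library (0.98 to 1.32). XZSW against HUA was not called (-0.30, SE 0.28, adjusted p = 0.527). In XZSW against CTL the log2 change was 0.90 (SE 0.28, adjusted p = 0.0789), and it was called with library totals (1.07, adjusted p = 0.0397), with DESeq2 (0.91, adjusted p = 0.0252), with the GC split in the model (1.26, adjusted p = 0.00783) and without HUA1 (0.93, adjusted p = 0.0447). Further calls came with only the 8 libraries, the replicate block and log2(FPKM + 0.1) (adjusted p = 0.0359 to 0.0497). In the other 11 fits that left out 1 library it was not called (adjusted p = 0.0682 to 0.2135), and without XZSW1 the log2 change was 0.53 (adjusted p = 0.2135).

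Pdzk1, the scaffold gene, is on the plus strand at chr3:96829284-96870746. It stood at 892, 1148, 888 and 856 CPM in XZSW1 to XZSW4, at 539, 572, 257 and 335 CPM in HUA1 to HUA4, and at 1231, 1163, 1222 and 988 CPM in CTL1 to CTL4. HUA was below both other groups, and XZSW and CTL overlapped. Pdzk1 fell in HUA against CTL (log2 change -1.44, SE 0.23, adjusted p = 0.000781) and rose in XZSW against HUA (1.15, SE 0.23, adjusted p = 0.00621). This rise was called in each of the 12 fits that left out 1 library. XZSW against CTL gave -0.28 (SE 0.23, adjusted p = 0.491). Gpr89, on the opposite strand, overlaps the gene and had 8.59 to 23.9% of its counts.

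**Figure D2:**
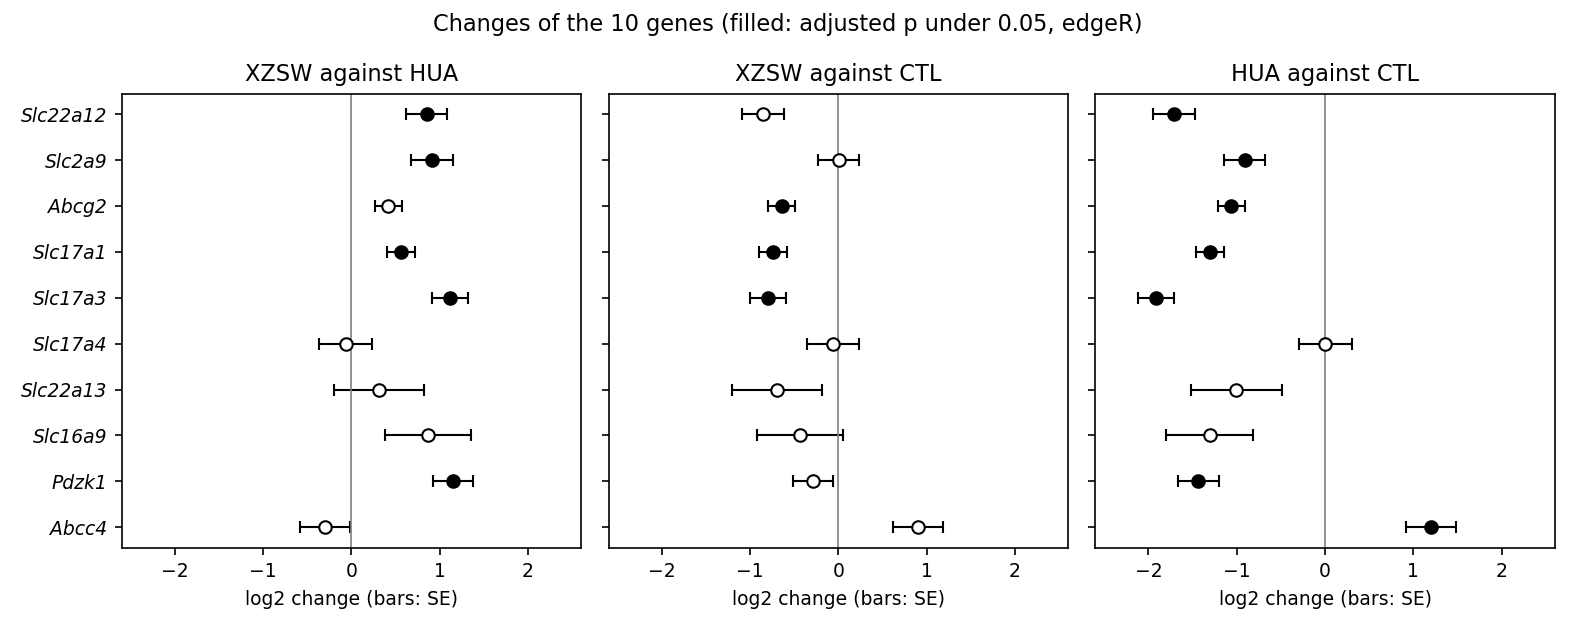
Log2 change of each gene (x axis, points with SE from edgeR's quasi-likelihood test) in XZSW against HUA, XZSW against CTL and HUA against CTL, with filled points for an adjusted p under 0.05. Abcc4 is at 1.20 in HUA against CTL, where Slc22a12, Slc17a3 and Pdzk1 are at -1.71, -1.91 and -1.44.

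The spread between libraries differed between the genes as well as between the groups. In CTL the coefficient of variation of CPM ran from 6.8% for Slc17a1 to 25.1% for Slc17a4. In HUA it ran from 15.3% for Slc17a4 to 76.9% for Slc16a9, and in XZSW from 10.4% for Slc22a12 to 56.8% for Slc22a13. HUA3 was the lowest HUA library for Slc22a12, Slc2a9, Abcg2, Slc17a1, Slc17a3, Slc16a9 and Pdzk1. In the same library the median of the 18 proximal tubule genes stood at -1.86 log2 units relative to the CTL mean, with -1.32 in HUA1, -0.61 in HUA2 and -2.43 in HUA4.

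Set against the proximal tubule genes, the 10 genes differed. Whole-kidney RNA does not show which tubule segment the RNA of each gene, such as Slc2a9, came from. For each library the median log2 level of the 18 proximal tubule genes was subtracted from that of the gene, both relative to the CTL mean, as a description with no test. Pdzk1 was close to the proximal tubule genes, at -0.08 ± 0.11 in XZSW and 0.05 ± 0.49 in HUA, with 0.00 ± 0.06 in CTL (mean ± SD, n = 4). Abcc4 was far above them, at 1.03 ± 0.65 in XZSW and 2.72 ± 0.82 in HUA, where its lowest value of 1.53 was above the highest CTL value of 0.16. Slc2a9 stood at 0.06 to 0.42 in XZSW and 0.15 to 1.41 in HUA, where every value was above the highest CTL value of 0.10. Slc17a4 stood at 0.09 ± 0.64 in XZSW and 1.58 ± 0.97 in HUA, where its lowest value of 0.29 was within the CTL range of -0.34 to 0.38. In XZSW all 4 values of Slc22a12 (-0.83 to -0.51), Abcg2 (-0.57 to -0.35), Slc17a1 (-0.70 to -0.35) and Slc17a3 (-0.71 to -0.43) were below all CTL values. In HUA the same 4 genes overlapped CTL on this measure. The proximal tubule median itself was -0.30 to -0.04 in XZSW, -2.43 to -0.61 in HUA and -0.15 to 0.06 in CTL.

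**Figure D3:**
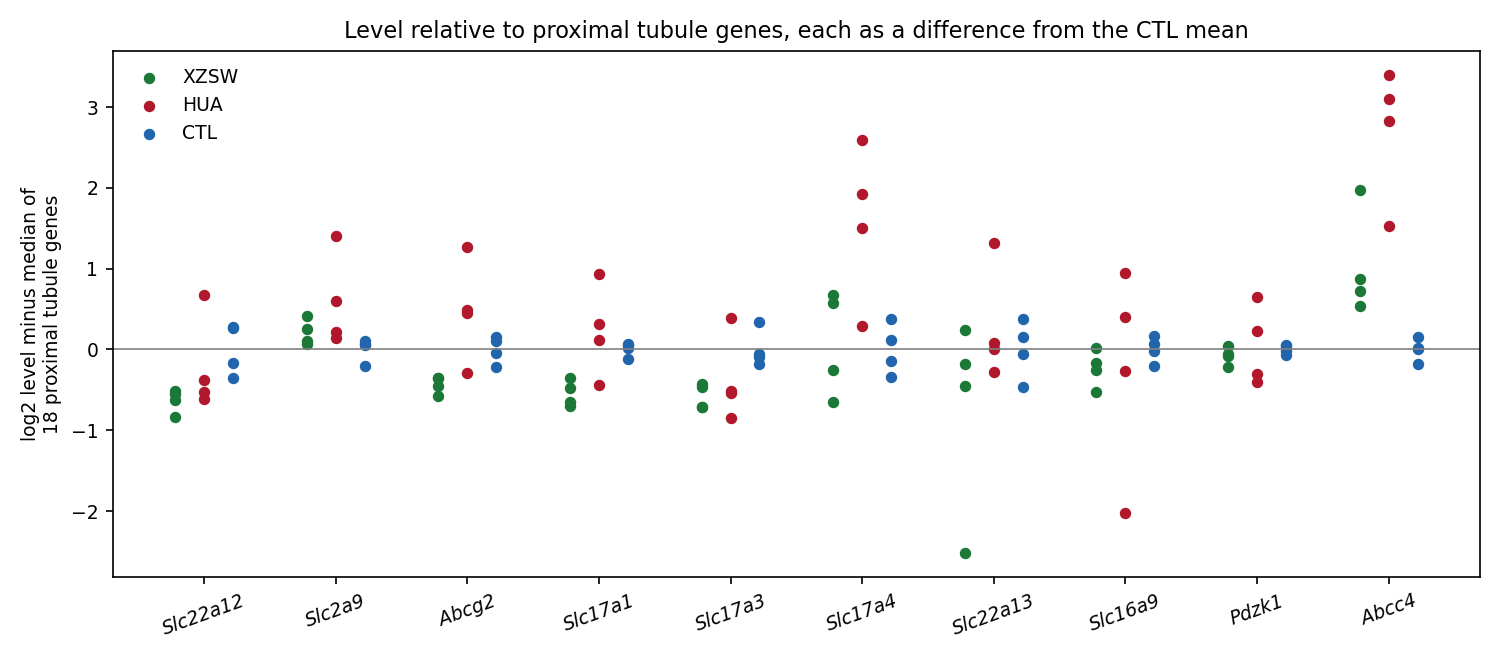
Log2 level of each gene minus the median log2 level of 18 proximal tubule genes, per library and relative to the CTL mean (y axis), with XZSW, HUA and CTL side by side for each gene. Abcc4 in HUA lies at 1.53 to 3.40, and Slc22a12 in XZSW at -0.83 to -0.51.

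Of 13 other tested carriers of urate and organic anions, 9 fell in HUA against CTL and the other 4 were not called, with a median log2 change of -1.72. Slc22a8 (OAT3) and Slc22a6 (OAT1), the basolateral uptake carriers of organic anions, fell by 2.32 (SE 0.30, adjusted p = 0.000196) and by 2.25 (SE 0.32, adjusted p = 0.000423) on the log2 scale. Slc13a3, a dicarboxylate carrier that feeds their exchange, fell by 1.71 (SE 0.33, adjusted p = 0.0022). In XZSW against HUA 5 of the 13 rose and the others were not called, with Slc22a8 at 2.64 (SE 0.30, adjusted p = 0.000413), Slc22a6 at 1.69 (SE 0.32, adjusted p = 0.00477) and Slc13a3 at 1.56 (SE 0.33, adjusted p = 0.00801). In XZSW against CTL edgeR called 0 of the 13, with 3 at an unadjusted p under 0.05, and DESeq2 called 1. Slc5a12, a sodium-coupled lactate carrier whose substrates URAT1 can exchange, was not called in any comparison (HUA against CTL: -0.69, adjusted p = 0.324).

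Among 11 partners of the PDZ scaffold 6 fell in HUA against CTL and the other 5 were not called, with a median log2 change of -0.74. Slc22a4 (OCTN1), Slc22a5 (OCTN2, the carnitine carrier) and Pdzd3 (a second PDZ scaffold of the brush border) fell by 0.91 (adjusted p = 0.000847), 1.52 (adjusted p = 0.00107) and 1.28 (adjusted p = 0.0021) on the log2 scale. In XZSW against HUA 7 rose, among them these 3 at 0.60, 0.91 and 1.02, and Ezr (ezrin, which ties the brush border to actin) fell (-0.46, adjusted p = 0.0467). Of the 11, edgeR called 0 in XZSW against CTL, with 1 at an unadjusted p under 0.05, and DESeq2 called 0. Slc9a3r1, which encodes NHERF1, had log2 changes of -0.03 (adjusted p = 0.934) in HUA against CTL and 0.21 (adjusted p = 0.487) in XZSW against HUA. Pdzk1ip1, whose product MAP17 binds PDZK1, had -0.18 (adjusted p = 0.559) and 0.34 (adjusted p = 0.29). Summed FPKM of the 11 partners was 1343 to 1621 in XZSW, 675 to 1139 in HUA and 1088 to 1269 in CTL. Much of this sum was Slc34a1 alone, at 750 to 940 FPKM in XZSW, 94.0 to 480 in HUA and 506 to 692 in CTL. On the CPM scale Slc34a1 was not called in XZSW against CTL (0.22, edgeR adjusted p = 0.751). The median log2 change of the 11 partners there was 0.16.

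**Figure D4:**
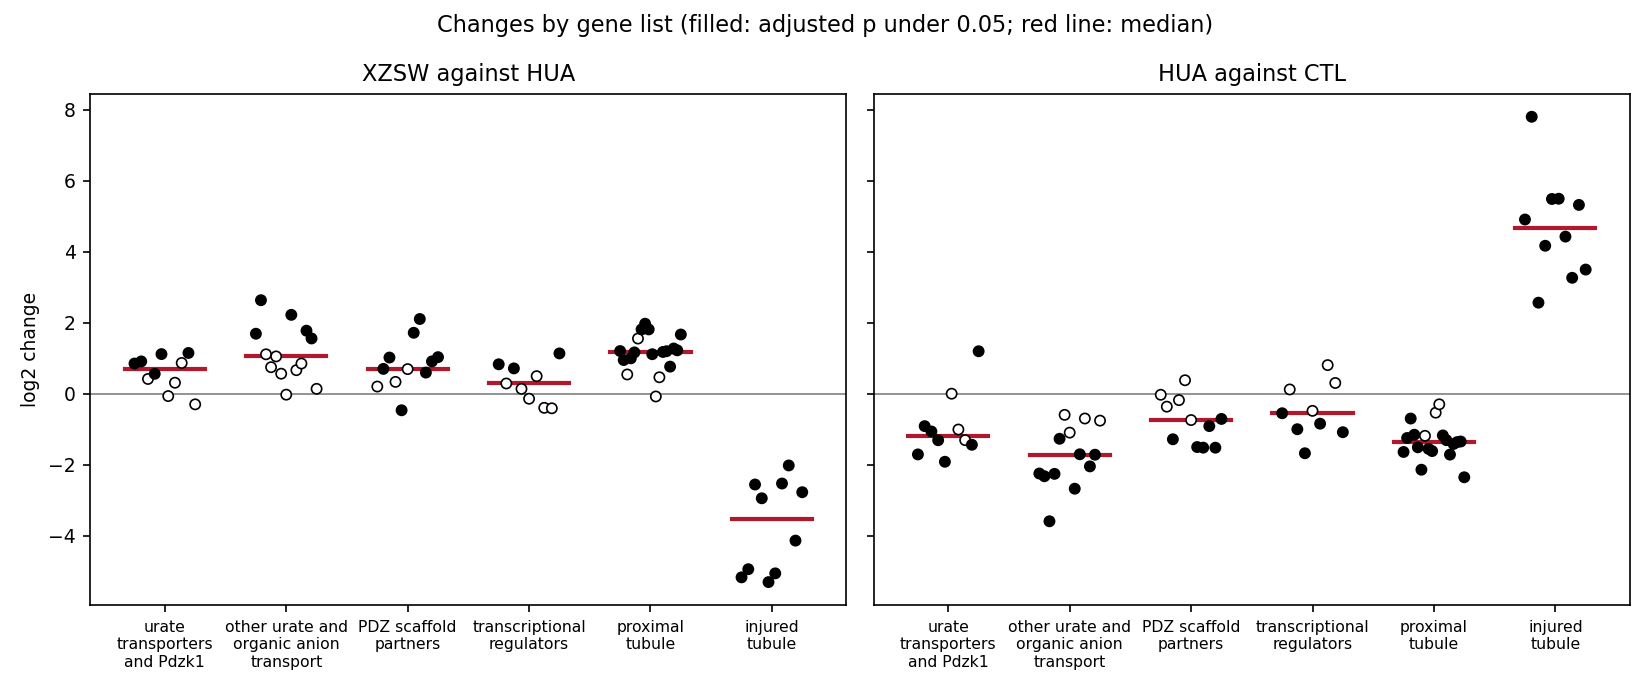
Log2 change of each tested gene (y axis) in XZSW against HUA and HUA against CTL, by gene list, with filled points for an adjusted p under 0.05 and a line at the median. The medians of the urate transporter set are 0.71 and -1.18, those of the proximal tubule list 1.19 and -1.35, and those of the injured tubule list -3.54 and 4.67.

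Of 9 transcriptional regulators known to act on tubule transporter genes, 5 fell in HUA against CTL and the other 4 were not called. Hnf4a, a nuclear receptor that activates proximal tubule genes, stood at 617, 779, 604 and 487 CPM in XZSW1 to XZSW4, 511.5, 385, 265.5 and 351.5 CPM in HUA1 to HUA4, and 744, 693, 788 and 796 CPM in CTL1 to CTL4. HUA was below CTL without overlap, and XZSW overlapped both. Hnf4a fell in HUA against CTL (-0.997, SE 0.19, adjusted p = 0.00236) and rose in XZSW against HUA (0.72, SE 0.19, adjusted p = 0.0255). Esrra, a regulator of mitochondrial genes, fell in HUA against CTL (-1.08, SE 0.18, adjusted p = 0.00109) and rose in XZSW against HUA (1.14, SE 0.18, adjusted p = 0.00212). Hnf4g, a relative of Hnf4a, fell in HUA against CTL (-1.67, SE 0.44, adjusted p = 0.0126) and was not called in XZSW against HUA (0.14, SE 0.43, adjusted p = 0.868). Of the 9, edgeR called 0 in XZSW against CTL, with 1 at an unadjusted p under 0.05, and DESeq2 called 1.

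Genes whose profile over the 12 libraries was most like that of a transporter were found by the root mean square difference of centred log2 CPM, among the 10104 tested genes whose mean FPKM reached 2. For Slc22a12 these were Cryzl2, at 0.160 log2 units, Slc17a3, at 0.193, and Coasy, which makes coenzyme A, at 0.204. For Slc2a9 they were Acp6, at 0.142, Xylb, a xylulose kinase, at 0.147, and Ak3, a mitochondrial adenylate kinase, at 0.152. For Abcg2 they were Fech, which inserts iron into haem, at 0.087, Sucla2, a subunit of succinyl-CoA synthetase, at 0.09, and Ngly1, at 0.104. Within the set, Abcg2 and Slc17a1 differed by 0.132 and Slc22a12 and Pdzk1 by 0.317. In order of nearness among the 10104 genes, Slc17a1 was at place 14 from Abcg2, and Abcg2 at place 6 from Slc17a1. Pdzk1 was at place 82 from Slc22a12, and Slc22a12 at place 316 from Pdzk1, so many other genes were nearer. Abcc4 differed from each of the 6 genes that fell by 0.985 to 1.33. All of these profiles share the same libraries and their scaling.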

How the data were processed

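RNA from whole mouse kidney was sequenced in 12 strand-specific libraries, 4 each of XZSW, HUA and CTL, grouped by their titles. Per the submitters' processing notes, cutadapt 1.9, HISAT2 2.2.1 and the build GRCm38 were used; the sources used here name no counting tool or annotation. Raw counts per gene and FPKM values were deposited by the authors side by side, per the file headers.

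Genes were kept with edgeR's filterByExpr (19772 of 33188), scaled by TMM and fitted together over the 12 libraries; the quasi-likelihood test of edgeR gave p-values, which were Benjamini-Hochberg adjusted over every tested gene. Standard errors were taken from the F statistic. The 10 genes and the 12 gene lists were chosen with earlier results of these data known. Named list genes were the 3 with the smallest p in HUA against CTL of each of 3 lists, beside genes named after their values were seen (Slc5a12, Slc9a3r1, Pdzk1ip1 and Ezr). Genes alike in profile were the 3 nearest to Slc22a12, Slc2a9 and Abcg2. GC content came from the longest GENCODE M21 transcript, promoters from RefSeq. A planned comparison of protein ends was not made, since protein sequences were not used here. The fit was tested on simulated data. Alternatives were other scalings, filters and tests, a replicate block, a GC split and leaving out libraries. Tests ran in edgeR 4.0.16, DESeq2 1.42.0 and limma 3.58.1 under R 4.3.3; tables and figures were made with pandas 2.3.3, numpy 2.4.6 and matplotlib 3.10.9 in Python 3.11.15.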

Additional observations from a re-analysis of the deposited data

Results flagged for a closer look

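In 57 groups of 4 values (the 10 genes and 9 named list genes in each group of libraries), 4 held a library far from the other 3, and chance alone puts about 1 in 20 groups past this limit. Pdzk1 in XZSW2 stood at 1148 CPM, with the next XZSW library at 892. Abcc4 in HUA1 stood at 65.4 CPM, with the next HUA library at 37.3. Slc2a9 in CTL4 was at 14.4 CPM, with the next CTL library at 19.96. Slc22a5 in CTL3 was at 411 CPM, with the next CTL library at 316.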

How the results depend on the processing

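All 7 calls in HUA against CTL were kept in each of the 12 fits that left out 1 library (7 to 9 of the 10 genes called, and 4208 to 6347 of all genes), and 6 of the 7, all but Slc2a9, in each of the 10 other planned settings. In XZSW against HUA only Pdzk1 and Slc17a3 kept their calls in all of these; leaving out 1 library gave 2 to 6 genes called and 1711 (without HUA3) to 3817 of all genes, with 3 called without HUA3, HUA4 or XZSW1 and 2 without XZSW2. Fits without 1 library gave 0 to 4 genes called in XZSW against CTL and 133 to 1596 of all genes, in place of 3 and 987; edgeR called 0 of the 10 without any 1 CTL library, XZSW1, XZSW3 or XZSW4, with 5 at an unadjusted p under 0.05 in each. In XZSW against HUA, library totals gave 3 genes called, and a fit of only those 8 libraries gave 2, with 1439 of all genes in place of 3051. In XZSW against CTL, DESeq2 gave 5 and 2417, no filter 1 and 529, only the 8 libraries 5 and 2625, limma on log2(FPKM + 1) 1 and 1631, limma on log2(FPKM + 0.1) 1768 of all genes and the GC split 1750. Without HUA3 and XZSW2 together, chosen after seeing the data, XZSW against HUA had 2 of the 10 and 1027 of all genes called. Library totals moved the median log2 change of all genes in HUA against CTL to 0.39, with 5779 genes up and 1320 down in place of 2950 and 2538, and no called gene of the 10 changed direction under any setting. The causes of these shifts were not tested. Same-numbered libraries of different groups had small correlations of deviations (-0.0457 to 0.174), and the main fit did not take the number as a pairing. Yet the same number was the best match for 1 and 2 in HUA against CTL. It was also the best for 1, 3 and 4 in XZSW against HUA and for 1, 2 and 4 in XZSW against CTL. Whether same-numbered libraries shared a batch was not tested. With the number as a replicate block, 8, 5 and 4 of the 10 genes were called. Of all genes 5466, 3076 and 813 were called, in the order HUA against CTL, then XZSW against HUA, then XZSW against CTL. Of 690 single-gene values under alternatives, 617 stayed on their side of the threshold, 53 lost a call and 20 gained one. Slc17a4 had the fewest counts of the 10 genes, at 168 to 427 per library.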
